A study of Mus musculus with 4 samples.

Results

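The response of the Cftr-null (CF) mouse small intestine to lubiprostone was read as the signal of the CF + lubiprostone pool over that of the CF control pool, on Affymetrix Mouse 430 2.0 arrays. Probe sets with 1 gene symbol were used when their signal was at or above the median of its array in either CF array, and where a gene had several, their log2 ratios were averaged. This left 20724 of 45101 probe sets, for 11796 of the 18202 genes with at least 1 probe set not shared with another gene. Genes kept in this way are called measured below. Each group was 1 pool of RNA on 1 array, so no ratio below has a replicate array and no p-value is given. The words "higher" and "lower" describe these pools of RNA. The study also measured some of the genes named below by qRT-PCR in individual samples. It reported lower Pla2g4c, Gsdmc2 and Mcpt2 and higher Slc5a12 and Cyp4a10 in treated than control CF mice. Decreases of Retnlb and Chil4 were not significant there.

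All mice were littermates from heterozygous parents on the C57BL/6J background. CF mice carry the Cftrtm1UNC null mutation, a premature stop, in both copies of Cftr in every tissue, and WT mice were wild type. Every mouse, controls included, was kept on the liquid diet Peptamen, which protects CF mice from lethal intestinal obstruction. Treated mice were gavaged once a day with lubiprostone in Peptamen at 10 µg/kg for 2 weeks, and control mice are labelled as receiving no treatment. Whether they were gavaged with Peptamen alone, and the age and sex of the pooled mice, are not given in the sources used here. RNA came from the whole small intestine with its mesentery removed, and equal amounts were combined from 10 CF control, 8 CF + lubiprostone and 7 WT + lubiprostone mice. The WT control pool held 10 mice by the series' own design text and 8 by the study's methods.

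CFTR is an anion channel of the epithelial surface, and its loss leaves the intestinal lumen dry and acidic, with mucus that clears slowly. Lubiprostone is a bicyclic fatty acid used against constipation. It is held to raise fluid secretion through the chloride channel ClC-2, encoded by Clcn2, and actions through CFTR itself have also been described. The intestinal wall holds absorptive, goblet, Paneth, endocrine and tuft cells of the epithelium beside lymphocytes, mast cells, fibroblasts, smooth muscle and nerves, and RNA of the whole organ averages over all of them. Fewer cells of a type and less RNA per cell cannot be told apart in such samples.

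Below, the 4 signals of a gene are given in the order WT control and WT + lubiprostone, then CF control and CF + lubiprostone. Signals are intensities in arbitrary units, and for a gene with several probe sets the geometric mean is shown. The array medians lay between 109 and 124, and a fold is written "at least" where a signal below the median of its array was set to that median. Cftr was checked first and had signals of 2506, 2226, 620.2 and 715, low in both CF pools. The epithelial marker Vil1, the villus actin bundler, had signals of 23349, 24067, 20316 and 20389, and the goblet cell mucin Muc2 of 16545, 17206, 22836 and 19013, so that RNA of the intestinal epithelium was present on all 4 arrays. Xist, which silences an X chromosome in females, read 308, 976, 679.8 and 1012 and the Y-linked Eif2s3y 1242, 829, 884 and 805, and the part of sex in the values below was not tested.

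Most genes had nearly equal signals in the 2 CF pools. The ratio lay between 1/1.5 and 1.5 for 9921 genes (84.1%), and the median log2 ratio was 0.01. In CF + lubiprostone, 115 genes (0.975% of 11796) reached 3-fold above CF control and 88 (0.746%) lay 3-fold or more below it. At 2-fold the counts were 377 (3.2%) and 256 (2.17%). These counts include many dim genes. Of the 3-fold genes, 25 higher and 26 lower reached the 75th percentile of a CF array, and 90 and 62 were dimmer. When signals under an array's median were raised to it, 24 genes were at least 3-fold higher and 25 lower. The balance between the directions also moved with the scale of the arrays: with all arrays set to the same median, every log2 ratio was lower by 0.13 and the 3-fold counts became 89 higher and 108 lower, 45.2% higher in place of 56.7%. The 2-fold counts became 265 and 347, 43.3% higher in place of 59.6%. Quantile normalization gave 92 and 105 at 3-fold (46.7% higher) and 281 and 308 at 2-fold (47.7% higher). Among 3-fold genes with more than 1 probe set, 28 of 31 had all probe sets in 1 direction, and the median SD between probe sets of a gene was 0.249 on the log2 scale over all genes and 0.163 over brighter probe sets. At the threshold among brighter genes, Slc16a9 was 3.0-fold and Cyp4b1 2.98-fold higher, and Ankrd37 was 3.06-fold and Cela1 2.98-fold lower.

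**Figure D1:**
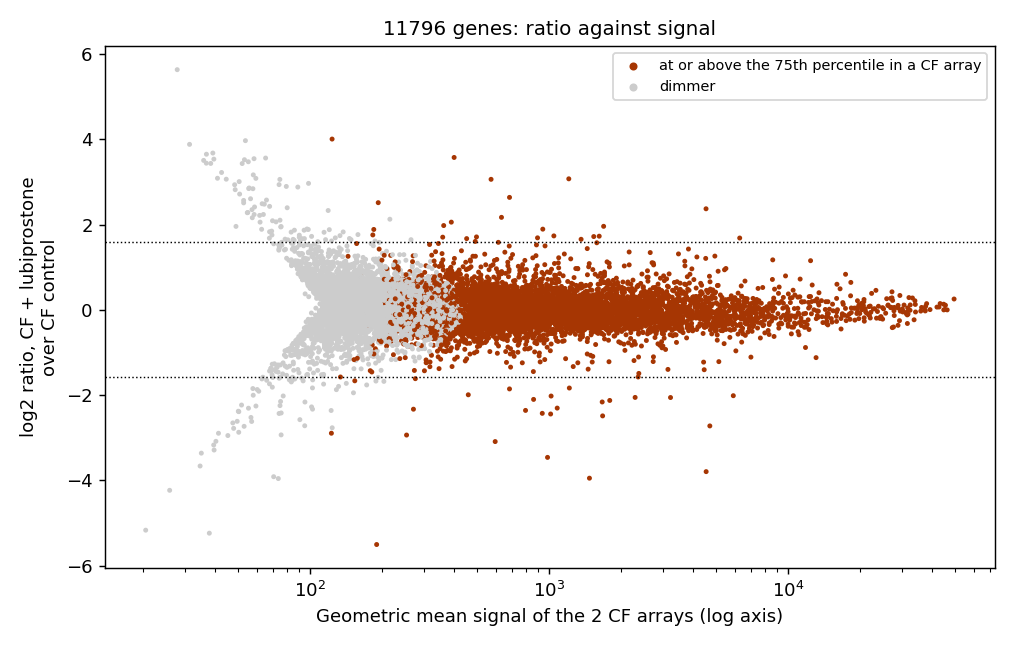
Log2 ratio of CF + lubiprostone over CF control (vertical axis) against the geometric mean signal of the 2 CF arrays (horizontal log axis), with 1 point for each of 11796 genes. Brighter genes, at or above the 75th percentile of a CF array, are dark. Most points past the dotted lines at 3-fold lie at low signals, with 90 of 115 higher and 62 of 88 lower genes among the dimmer ones.

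The 20 highest and 20 lowest genes were ranked among those that reached the 75th percentile and had all probe sets in 1 direction, by ratios with signals under an array's median raised to it. The highest end held genes of fatty acid use, of epithelial defence, of solute transport and of the interferon response. The lowest end held mast cell proteases, effectors of type 2 immunity, digestive enzymes of the pancreas and heat shock genes. Acot1, a thioesterase that frees fatty acids from coenzyme A, ranked highest, with signals of 747, 715, 116 and 1386, which made it 11.9-fold higher. On the signals as deposited the ratio of Zbtb16, described below, was higher, at 16.1-fold, from a dim CF control signal. Mcpt1, a mucosal mast cell protease, ranked lowest, with signals of 143, 74.2, 5798 and 376, 15.4-fold lower. Chil4, a chitinase-like protein of type 2 immunity, had signals of 25.2, 26, 1281 and 28.2, at least 10.7-fold lower by this ranking and 45.4-fold lower on the signals as deposited. Cirbp, an RNA-binding protein induced by cold, had signals of 497, 1229.8, 298 and 1343 and was higher with lubiprostone in both genotypes, 4.51-fold in CF. Slc47a1, an exporter of organic cations, had 1445, 1503, 191 and 797 and was 4.17-fold higher, and Zfas1, a host gene of small nucleolar RNAs, had 1005, 1083, 848 and 2795 and was 3.30-fold higher. Pappa, a protease that cleaves binding proteins of insulin-like growth factor, had 121, 79, 96.2 and 356 and was at least 3.25-fold higher.

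**Figure D2:**
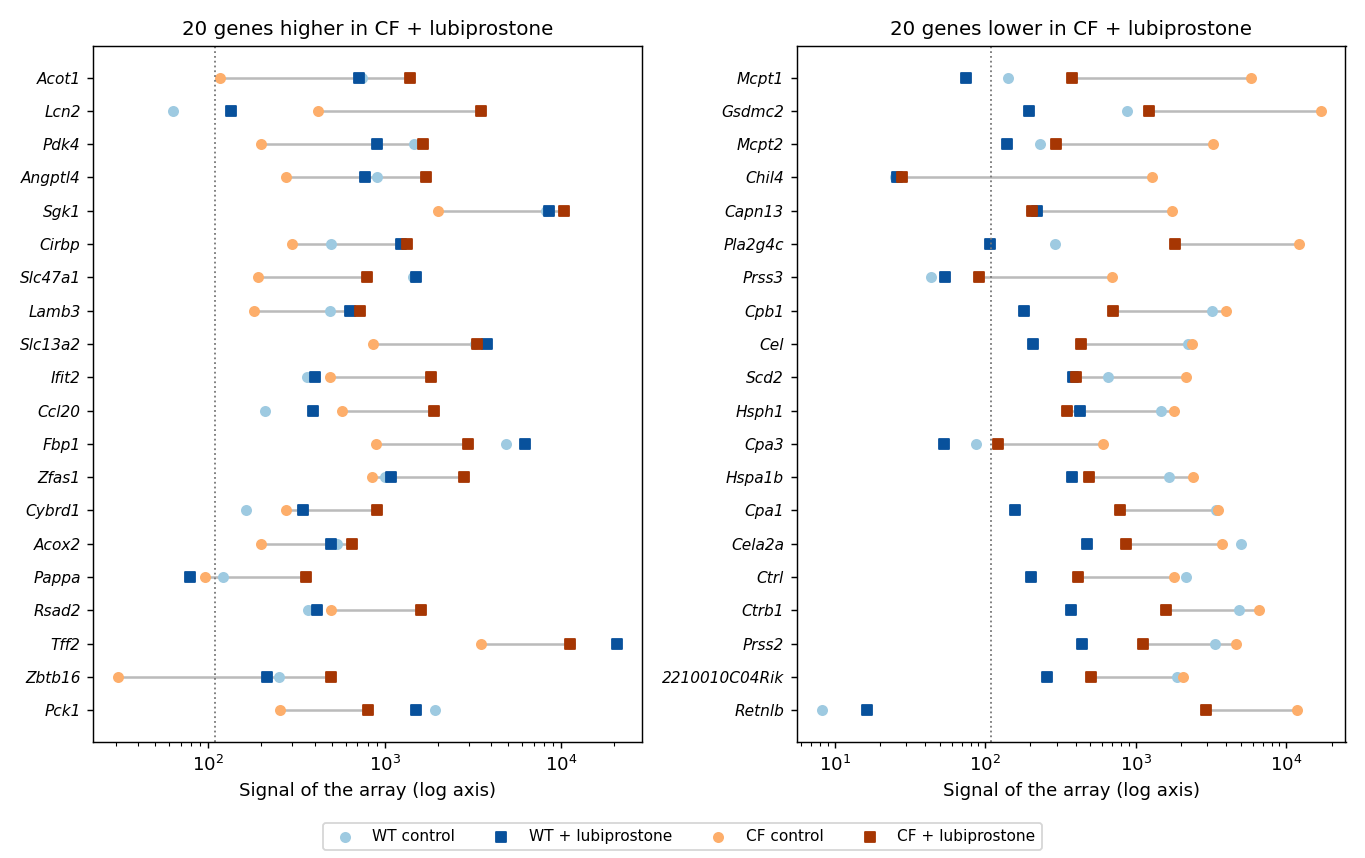
Signals (horizontal log axis) of the 20 highest and 20 lowest genes on the 4 arrays, each point being 1 pool of RNA, and with grey lines between the CF pools. The dotted line marks the median of the CF control array, 109. Acot1 lies at 116 in CF control and 1386 in CF + lubiprostone, and Mcpt1 at 5798 and 376.

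Genes of fatty acid use were higher in CF + lubiprostone. PPAR-alpha is a nuclear receptor that senses fatty acids and switches on their oxidation in the fasted state. Of 19 measured target genes, 17 were higher and 2 lower, with a median log2 ratio of 0.41 (all genes: 0.01). By 2-fold or more 6 were higher (all genes: 3.2%) and 1 was lower (all genes: 2.17%). Pdk4, a kinase that keeps pyruvate out of the mitochondrion, had signals of 1460.5, 900.3, 198 and 1655 and was 8.36-fold higher. Angptl4, a secreted inhibitor of lipoprotein lipase, had 906, 777, 274 and 1707 and was 6.23-fold higher. Both were lowest in CF control and highest in CF + lubiprostone, while WT + lubiprostone lay below WT control. Acaa1b, a peroxisomal thiolase, was 2.17-fold higher, Pex11a, which drives division of peroxisomes, 2.14-fold higher, and Plin2, which coats lipid droplets, 1.58-fold higher. Me1, malic enzyme of lipogenesis, went the other way with signals of 795, 420.0, 2028 and 859, 2.36-fold lower. In WT the same 19 genes had a median of -0.21, with 6 higher and 13 lower. The paired half-sites AGGTCANAGGTCA, or the looser AGGNCANAGGNCA, were found in the promoter windows described below for 0 of the 16 target genes that have one, and the looser form in 35 of 9521 kept genes (0.368%).

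Of 19 genes of mitochondrial fatty acid oxidation, 14 were higher, with a median of 0.29. With the arrays set to the same median 12 were higher, with a median of 0.16. As deposited, 1 of the 19 was at least 2-fold higher, where 3.2% of all genes were. This was Acaa2, the mitochondrial thiolase, with signals of 4579, 4868, 1899 and 3949.9. Cpt1a, which admits long-chain fatty acids to the mitochondrion, was 1.56-fold higher and Acadl, an acyl-CoA dehydrogenase, 1.5-fold higher. Among genes that absorb lipid and assemble chylomicrons, 21 of 24 were higher with a median of 0.27, and 16 with a median of 0.14 when the arrays were set to the same median. Dgat2, which completes triglycerides, had signals of 3989, 3994, 2588 and 5299 and was 2.05-fold higher, and Cd36, a fatty acid receptor, had 849.9, 513, 226 and 564 and was at least 2.32-fold higher. Fabp1 and Fabp2, the bright fatty acid binding proteins of the enterocyte, were only 1.19-fold and 1.22-fold higher. Genes that make lipid mostly went in the opposite direction. Of 20 lipogenesis genes 15 were lower and 5 higher (median -0.26). The lower ones were led by Scd2, a desaturase, with signals of 654, 385, 2173 and 404, 5.37-fold lower. Acacb, an acetyl-CoA carboxylase, went against the list with 61.1, 62.2, 19 and 224, at least 2.05-fold higher. Of 20 cholesterol synthesis genes 18 were lower with a median of -0.41, none by 2-fold. Fdps, a farnesyl diphosphate synthase, had 1233, 1126, 4446 and 2621 and Idi1, an isomerase of the same pathway, 986, 1229, 3830.4 and 2285. Both remained above the WT pools in treated CF mice.

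Sugar handling genes were also higher. Of 13 genes of gluconeogenesis and sugar uptake, 10 were higher, 4 of them at least 2-fold (all genes: 3.2%), with a median of 0.51. Fbp1, the bisphosphatase of gluconeogenesis, had signals of 4883, 6232, 891 and 2954 and was 3.32-fold higher. Pck1, the carboxykinase at the head of that pathway, had 1936, 1494, 253 and 808 and was 3.19-fold higher. Slc2a5, the fructose transporter, had 3339.8, 4787, 3189 and 7653 and was the brightest of the 4 pools in CF + lubiprostone. Slc37a4, which carries glucose 6-phosphate into the endoplasmic reticulum, was 2.01-fold higher. Slc5a1, the main sodium-linked glucose carrier, differed little, with 23933, 26963, 25233 and 27115. The related Slc5a4b had 264 in CF control and 101 in CF + lubiprostone, at least 2.21-fold lower. Slc5a12 and Slc13a2, sodium-linked carriers of lactate and of citrate, had signals of 1676, 746, 35.3 and 276 and of 3245, 3794, 858 and 3339.9, at least 2.52-fold higher and 3.89-fold higher. Slc5a12 was lower in treated than control WT mice.

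Genes that glucocorticoids induce were higher as a group. Glucocorticoid hormones act through a nuclear receptor that binds paired half-sites in DNA, and in the gut they mature enterocytes and restrain inflammation. Of 24 measured genes, 23 were higher, 8 at least 2-fold, with a median of 0.55, where 51.3% of all genes were above 1 and 3.2% at least 2-fold higher. With the arrays set to the same median 18 were higher and 6 lower, and with quantile normalization 19 and 5. Several of them (Pdk4, Angptl4, Pck1, Lcn2) are in other lists as well. Sgk1, a kinase that sustains sodium absorption, had signals of 8162, 8529, 1994 and 10327, low in CF control alone, and was 5.18-fold higher. Zbtb16, a transcription factor, had 251, 216, 30.9 and 497 and was at least 3.20-fold higher. Fkbp5, a chaperone of the glucocorticoid receptor, had 810.2, 647, 878 and 2380.2 and was 2.71-fold higher. Its signal in the treated CF pool was above that in the 3 other pools. Tsc22d3, an anti-inflammatory mediator of the hormone, had 1037, 816, 736 and 1427. Mt2, a metallothionein, had 10297, 10691, 5742 and 12959 and was 2.26-fold higher. Nr3c1, the receptor itself, differed little, with 633, 526, 528 and 542, as did Hsd11b1 and Hsd11b2, the enzymes that form and inactivate the hormone, at 1.17-fold and 1.02-fold higher. Tat, a classical hepatic target, had 51.5, 156, 815 and 595 and was 1.37-fold lower. In WT mice the list had a median of -0.02.

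The promoter windows of RefSeq (build GRCm38.p6, 250 bases before to 50 after each start site) were searched on both strands for the palindrome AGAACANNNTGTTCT, the strict form of the glucocorticoid response element. It was found in 3 of 32851 windows (0.00913%) and in 1 of the 19 glucocorticoid-induced genes that have a window. That gene is Sgk1, where it begins 1 base earlier than the shorter form GNACANNNTGTNC, which 29 of 9521 kept genes (0.305%) and 2 of these 19 hold. The shorter form begins 188 bases before 1 of the 6 Sgk1 start sites. The last 200 bases before that start site are shown with the shorter form in capitals, since Sgk1 is the 1 member with the strict element.
Sgk1, chr10:21993690-21993889, plus strand: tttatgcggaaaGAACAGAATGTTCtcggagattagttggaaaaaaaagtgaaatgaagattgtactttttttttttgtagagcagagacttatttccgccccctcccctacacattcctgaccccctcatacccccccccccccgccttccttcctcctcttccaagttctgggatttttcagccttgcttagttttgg
The element in Mt1, which was 1.41-fold higher, is the other match to the shorter form. Fkbp5 and Pdk4 held no match to either form in their windows.

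Genes of the amino acid starvation response, which the transcription factor ATF4 switches on when amino acids run short, were higher in 23 of 28 cases. Their median was 0.50, and 5 genes were at least 2-fold higher (all genes: 3.2%). Atf5 had signals of 280.3, 321, 342 and 848 and was 2.48-fold higher. Psat1, of serine synthesis, had 299, 277, 522 and 1061, and Chac1, which degrades glutathione, 51.7, 187, 377 and 785. Asns, the asparagine synthetase, had 1072, 1331, 3472 and 5349 and was 1.54-fold higher. For each of Atf5, Psat1, Chac1 and Asns the CF control pool stood above both WT pools and the treated CF pool was the highest. Ddit3, a target of the unfolded protein response as well, was at least 1.08-fold lower, and the list of ER folding genes had a median of -0.13. Among amino acid and peptide transporters 11 of 17 were higher (median 0.29), led by Slc6a19, the carrier of neutral amino acids in the brush border, with 7398, 8881, 2975 and 6877, 2.31-fold higher. Glul, glutamine synthetase, had 1025, 1059.8, 746 and 1604 and was 2.15-fold higher.

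Several secreted defence proteins of the epithelium were higher in CF + lubiprostone than in any other pool. Of 22 genes of epithelial inflammation, 18 were higher, 4 at least 2-fold (all genes: 3.2%), with a median of 0.37. Lcn2, lipocalin 2, which withholds iron from bacteria by binding their siderophores, had signals of 63, 135, 417 and 3514 and was 8.43-fold higher. Saa3, a serum amyloid A, had 139, 145, 767 and 2419 and was 3.15-fold higher. Ccl20, which draws lymphocytes and dendritic cells to the epithelium, had 209.8, 390.4, 574 and 1913 and was 3.33-fold higher. For these 3 genes the signal was higher in CF control than in either WT pool and higher again with lubiprostone. The neutrophil attractant Cxcl2 had 76.6, 33.8, 215 and 474, highest in the treated CF pool as well. The neutrophil genes S100a8 and S100a9 differed little, with 322 in CF control and 362 in CF + lubiprostone for the first and 226 in CF control and 249 in CF + lubiprostone for the second. The bright antibacterial lectin Reg3b had 46264 in CF control and 46306 in CF + lubiprostone. Hmox1, heme oxygenase, was above the median of its array only in the treated CF pool, with 122, 109, 103 and 452, at least 4.13-fold higher. It was the only one of 18 target genes of NRF2, the sensor of oxidative stress, that was at least 2-fold higher, and 12 of them were lower.

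Interferon-stimulated genes were higher together and gave the highest median of the lists with at least 8 genes. Interferons are cytokines released on viral infection, and they switch on antiviral proteins through the interferon-stimulated response element of their promoters. Of 33 measured genes, 30 were higher and 3 lower, with a median log2 ratio of 0.69 and a range from -0.92 to 1.9. At least 2-fold higher were 8 of them, against 3.2% of all genes, and no member was 2-fold lower. Ifit2, which blocks translation of viral RNA, had signals of 360.3, 399.9, 488 and 1817 and was 3.72-fold higher. Rsad2, viperin, had 366, 414, 498 and 1609 and was 3.23-fold higher. Ifit1 had 1682, 1983, 2335 and 6286, Usp18, which curbs interferon signalling, 827, 790.0, 1501 and 3123, and Igtp, a GTPase of cell-autonomous immunity, 1487, 1166, 1838 and 3960.1. In each of Ifit1, Ifit2, Rsad2, Usp18 and Igtp the treated CF pool stood at least 2-fold above the other three. Xaf1, a partner of apoptosis inhibitors, was 2.48-fold higher and Oas3, a sensor of double-stranded RNA, 2.05-fold higher. The exceptions were Ifi27l2a, with 956, 823, 1089 and 577, and Irf1 and Zbp1, which were 1.04-fold and 1.05-fold lower. With lubiprostone 22 of the same 33 were lower in WT mice, and the median there was -0.16. The list kept 30 higher genes when the arrays were set to the same median, with a median of 0.56.

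Of 23 interferon-stimulated genes with a promoter window, 14 (60.9%) held the letters GAAANNGAAA, the core of the interferon-stimulated response element, on either strand, against 351 of 9521 kept genes (3.69%) and 1131 of 32851 windows (3.44%). The 14 genes with a match had a median log2 ratio of 0.77 and a range from 0.21 to 1.69. The 9 without a match had a median of 0.69 and a range from -0.06 to 1.9. The 200 bases before the start site are shown for Rsad2 and Ifit1, the 2 genes with a match that had the highest ratios, with the matches in capitals. Rsad2 has 1 match, which begins 120 bases before the start site, and Ifit1 has 2, which begin 104 and 85 bases before it. In both genes the letters lie on the strand opposite to the one printed, so the capitals are their reverse complement.
Rsad2, chr12:26456453-26456652, minus strand: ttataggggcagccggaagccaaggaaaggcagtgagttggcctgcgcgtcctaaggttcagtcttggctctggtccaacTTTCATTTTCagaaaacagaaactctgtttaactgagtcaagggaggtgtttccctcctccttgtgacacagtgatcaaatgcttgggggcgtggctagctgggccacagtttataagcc
Ifit1, chr19:34640689-34640888, plus strand: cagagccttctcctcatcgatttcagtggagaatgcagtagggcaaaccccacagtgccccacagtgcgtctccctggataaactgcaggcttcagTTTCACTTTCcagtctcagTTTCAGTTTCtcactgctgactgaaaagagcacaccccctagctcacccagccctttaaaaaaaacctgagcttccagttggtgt
Ifit2 and Xaf1, although 3.72-fold and 2.48-fold higher, held no match in these windows. Among all genes at least 2-fold higher, 14 of 282 with a window (4.96%) held the core.

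Genes of antigen presentation and of lymphocytes were higher as well. Of 11 MHC class II genes on the array 9 were kept by the filter, and all 9 were higher with a median of 0.40. In WT + lubiprostone 8 of the 9 were lower than in WT control (median -0.36). Cd74, the invariant chain, had signals of 11100, 8520.5, 8801 and 11420 and H2-Eb1, a class II chain, 5811, 4542, 4129 and 5595, so that the treated CF pool stood near WT control. H2-Oa had 66.2 in CF control and 171 in CF + lubiprostone and was kept through the latter alone. The same holds for Ciita, the master regulator of these genes, with 156, 119.9, 84.8 and 179.7. Nlrc5, its counterpart for class I genes, had 199, 183, 209 and 539 and was 2.58-fold higher, and Tap1, a peptide transporter for class I, 845, 1070.3, 1032 and 2080.4, 2.02-fold higher. The class I list as a whole had a median of 0.12, and 7 of its 15 genes were higher with the arrays set to the same median, against 13 as deposited. Of 17 T cell and intraepithelial lymphocyte genes 13 were higher, with a median of 0.33 and summed signals of 13500, 12312, 8548 and 11430. Ccl5, a chemokine of T cells, had 1569, 1088, 409 and 1045 and Klrd1, a receptor of natural killer and T cells, 543, 608, 207 and 504. The part of lymphocyte number in the interferon and MHC genes was not tested.

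**Figure D3:**
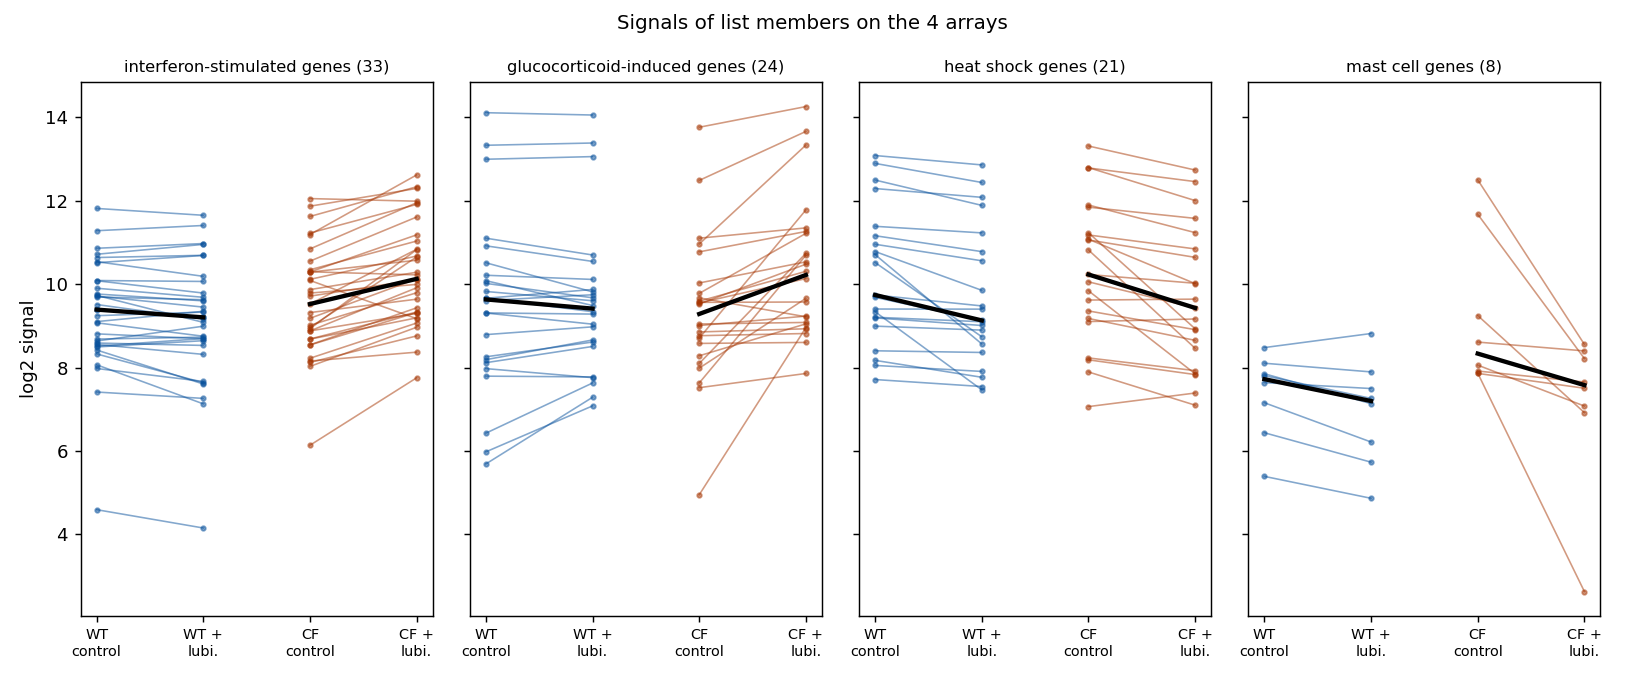
Log2 signals of the members of 4 gene lists on the 4 arrays, with thin lines joining each gene's control and lubiprostone pool within WT (blue) and within CF (red), and a thick black line for the median signal. Of interferon-stimulated genes 30 of 33 were higher in treated CF mice and 22 of 33 lower in treated WT mice, while heat shock genes were mostly lower in both genotypes.

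Genes of the mast cell and of type 2 immunity were lower. Mast cells of the mucosa, the alarmin IL-33 and goblet cell effectors act together against parasites, and tuft cells set the response off. Of 14 mast cell genes on the array 8 were kept by the filter, and all 8 were lower. Summed signals of the 8 were 1556, 1319, 11040 and 1655. Their median was -1.65, and -0.97 with signals under an array's median raised to it. Fcer1a, an IgE receptor chain with 41.9, 29.1, 233 and 6.2, was kept through CF control alone. Mcpt2 had 231, 140.4, 3270.4 and 297 and Cpa3, the mast cell carboxypeptidase, 86.6, 53.1, 608 and 121. Slc18a2, which loads histamine into granules, had 223, 153, 266 and 135. Kit and Gata2, which other cells of the gut also make, were at least 1.16-fold and 1.28-fold lower. Of 16 type 2 genes on the array 9 were kept, and all 9 were lower (median -1.10). Among them were Retnlb, with 8.2, 16.3, 11850 and 2938, and Il33, with 1814, 1498, 3981 and 1418. Chil4 was kept through CF control alone. Of 9 tuft cell genes 7 were lower with a median of -0.64. Rgs13 had 362, 356, 504 and 235, Siglecf 204, 256, 292 and 140.3 and Trpm5, the taste channel, 192, 169, 281 and 180.4, all 3 highest in CF control. Dclk1, the usual tuft cell marker, was near the median of its arrays, with 148, 176, 141 and 143. Siglecf is also made by eosinophils, and it is itself among the 2 lower of 5 measured neutrophil and eosinophil genes. The eosinophil genes Prg2, Epx, Ear1, Ear2, Ccr3 and Il5ra were not among those measured.

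Goblet cell and secretory products showed small differences beside a few large ones. Of 28 goblet cell and mucin genes 18 were lower with a median of -0.20, and Clca1, a secreted protease of mucus, was the only one past 2-fold, with 1739, 1617, 3474 and 1615. Its bright probe set, with 28374 in CF control and 15894 in CF + lubiprostone, was 1.79-fold lower. The dimmer one was 2.59-fold lower. Gsdmc2, of the pore-forming gasdermins, had 875, 194, 16915 and 1219.8 and was 13.9-fold lower, while Gsdmd was 1.48-fold higher. Pla2g4c, a cytosolic phospholipase A2, had 293, 108, 12086 and 1833 and Capn13, a calpain protease, 201, 220.4, 1737 and 204. In the treated CF pool Capn13 stood at the WT level and Pla2g4c above it. Tff2, a trefoil peptide of gastric and duodenal glands, had 11167, 20743, 3498 and 11260 and Gkn3, a gastrokine, 4455, 10228, 1663 and 4226. Both were higher with lubiprostone in either genotype. Of 9 gastric mucosal genes 6 were higher and 3 lower in CF. Gkn1, another gastrokine, was among the lower ones, by 1.79-fold and 1.97-fold on its probe sets. Reg4, of endocrine and secretory cells, had 5955, 5341, 6775 and 2899.9 and was 2.34-fold lower, and Olfm4, which marks crypt base cells, had 15232, 14618, 16051 and 8712 and was 1.84-fold lower.

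Heat shock genes were lower with lubiprostone in both genotypes. These genes encode chaperones that refold damaged proteins and are switched on by HSF1 under heat or proteotoxic stress. Of 21 measured genes 18 were lower in CF + lubiprostone with a median of -0.45, and all 21 were lower in WT + lubiprostone with a median of -0.26. Hsph1, of the Hsp110 class, had signals of 1465, 427, 1806 and 352 and was 5.12-fold lower. Hspa1b and Hspa1a, the inducible Hsp70 genes, had 1671, 379, 2404 and 487 and 646, 177, 916 and 231, 4.93-fold lower and 3.97-fold lower. These 2 genes are close copies of each other, and their probe sets may share transcripts. Chordc1, a partner of Hsp90, had 1759.9, 924, 2159.9 and 1032 and Hsp90aa1, the inducible Hsp90, 5774, 3792, 7104 and 4106. Each of these genes had both control pools above both treated pools. Hspa8, the constitutive Hsp70, was only 1.25-fold lower, and Bag3 and Hspa4 were 1.02-fold and 1.04-fold higher.

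The heat shock element GAANNTTCNNGAA was found in the promoter windows of 4 of 18 heat shock genes (22.2%), against 58 of 9521 kept genes (0.609%). These were Hsph1, Chordc1, Hspe1 and Hspd1, with a median log2 ratio of -0.86 and a range from -2.36 to -0.58. The matches in Hspd1 are the reverse complements of those in Hspe1. These 2 genes may therefore share a site, though they were counted separately. The 14 genes without a match had a median of -0.34 and a range from -2.3 to 0.33. Hspa1a and Hspa1b are among the latter. The stretches that hold the element are shown for Hsph1 and Chordc1, the 2 with the largest differences, and the 200 bases before the start site for Hspe1, a mitochondrial chaperonin with signals of 2677, 2400.0, 3815 and 2411. Capitals mark matches, which overlap in Chordc1 and Hspe1. In Hsph1 the match begins 15 bases after the start site, and in Hspe1 the matches begin 89 and 84 bases before it.
Hsph1, chr5:149636280-149636309, minus strand: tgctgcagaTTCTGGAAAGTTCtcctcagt
Chordc1, chr9:18292259-18292288, plus strand: accgGAACGTTCGGGAAAATTCCTGAAgca
Hspe1, chr1:55087948-55088147, plus strand: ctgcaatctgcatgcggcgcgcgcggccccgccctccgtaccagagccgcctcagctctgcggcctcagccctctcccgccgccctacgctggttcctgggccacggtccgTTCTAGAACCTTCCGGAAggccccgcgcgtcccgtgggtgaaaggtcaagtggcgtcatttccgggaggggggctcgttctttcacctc

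Genes of the gut wall were lower. Of 29 extracellular matrix genes 25 were lower, 11 at least 2-fold (2.17% of all genes were), with a median of -0.58. Col1a1 and Col3a1, fibrillar collagens, had signals of 580.3, 522, 1189 and 503 and 2258, 1750.0, 4150.5 and 1793, and Sparc, a matrix protein of remodelling tissue, 2145, 1476, 4004 and 1868. In all 3 the CF control pool stood apart and the treated CF pool lay near the WT pools. Lum, Tnc and Col6a3 were 2.35-fold, 2.01-fold and 2.05-fold lower. Dcn, decorin, differed by 1.03-fold. Lamb3, a laminin chain of epithelial basement membrane, went against the list with 487, 637, 183 and 720.4, 3.94-fold higher. Of 22 smooth muscle genes 21 were lower, with a median of -0.32 and summed signals of 34532, 37288, 47696 and 32820. Actg2, the actin of gut muscle, had 3643, 4162, 8436 and 4335. In WT mice 18 of the 22 were higher with lubiprostone (median 0.14). Genes of enteric neurons and glia, which lie in the same muscle coat, had a median of 0.31, with Vip, a neuropeptide of secretomotor neurons, at 1338, 1793, 1934 and 2813, and endothelial genes had 7 higher and 7 lower members. How much of this reflects the share of muscle and stroma in the RNA was not tested.

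Genes of growth and energy supply were slightly lower as groups. Of 28 cell cycle genes 23 were lower (median -0.33), with Pcna, the sliding clamp of replication, at 7448, 6582, 7857 and 5327 and Ccne2, a cyclin of entry into S phase, at 379, 280.2, 269 and 126. Rrm2, of nucleotide reduction, was an exception at 1.81-fold higher. Of 27 glycolysis and hypoxia genes 21 were lower (median -0.26). Ankrd37 and Egln3, both induced by hypoxia-inducible factors, had 266, 226, 483 and 158 and 776, 819, 2316 and 993, while Ndrg1 was 2.33-fold higher. Of 33 oxidative phosphorylation genes 30 were lower, all by less than 2-fold, with a median of -0.20. Cytosolic ribosomal protein genes had a median of 0.01, which became -0.11 with the arrays set to the same median.

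**Figure D4:**
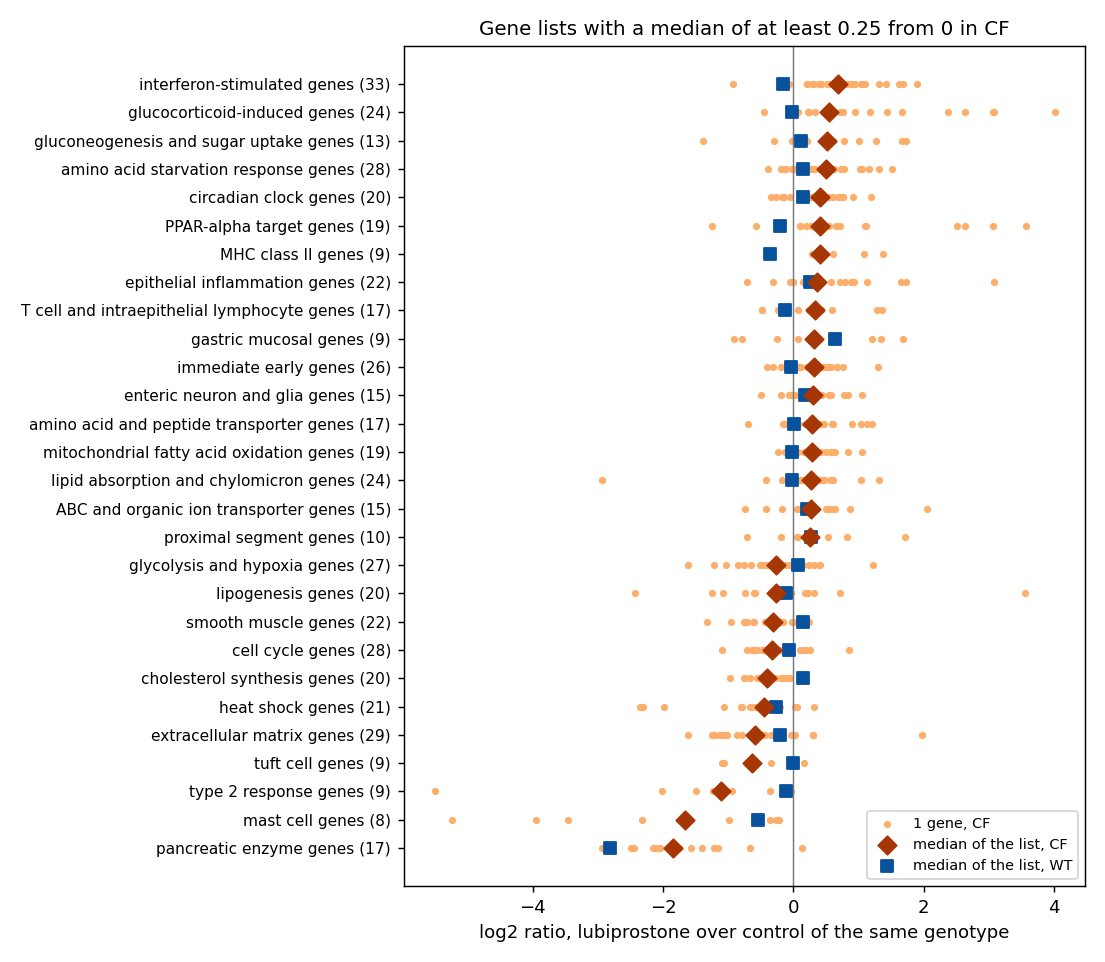
Log2 ratio of lubiprostone over control of the same genotype (horizontal axis) for gene lists with at least 8 measured genes and a CF median at least 0.25 from 0, with the number of genes in brackets. Small points are single genes in CF, diamonds the CF median and squares the WT median. Pancreatic enzymes (-1.85 and -2.81) and heat shock genes (-0.45 and -0.26) were lower in both genotypes, while interferon-stimulated (0.69 and -0.16) and MHC class II genes (0.40 and -0.36) lay on opposite sides of 0.

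Digestive enzymes of the pancreas, an organ that lies in the mesentery beside the duodenum, were much lower in both treated pools. Of 17 genes 16 were lower in CF + lubiprostone, 15 of them by 2-fold or more (all genes: 2.17%). The median was -1.85, and the WT median was -2.81. Summed signals of the list were 79824, 50080, 86245 and 52171, of which Zg16, also a bright goblet cell gene, made up 35488, 38126, 32565 and 35607. Cpb1, a carboxypeptidase, had 3214, 182, 3967 and 708 and Ctrb1, a chymotrypsinogen, 4840.2, 371, 6570.1 and 1581. Prss3, a trypsinogen, differed from these, with 43.7, 54.4, 702 and 91.7, dim in all pools but CF control. Clps and Pnliprp2, which enterocytes may also make, had 5422, 4306, 7816 and 3371 and 2752, 2506, 7250.1 and 2742, with the CF control pool highest. The treated CF pool was the lowest for Clps and near the WT pools for Pnliprp2. These genes account for 8 of the 20 lowest genes in the ranking, and the part of pancreatic tissue in these values was not tested.

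Genes of ion transport, the process that lubiprostone acts on, differed little as a group. Of 29 genes of chloride, bicarbonate and sodium transport, 18 were higher with a median of 0.06, which became -0.07 with the arrays set to the same median. Clcn2, which encodes ClC-2, had signals of 1520.4, 1564, 1450.1 and 2040.4 and was 1.41-fold higher. Cftr was 1.15-fold higher, from the low level of both CF pools. Slc26a3 and Slc26a6, chloride and bicarbonate exchangers, were 1.55-fold and 1.23-fold higher, and Slc12a2, the basolateral sodium-potassium-chloride carrier, 1.17-fold lower. Ano1 had the lowest ratio of the list as deposited, 4.84-fold lower, from dim signals of 55.6, 110, 224 and 46.2. With the floor it was at least 1.62-fold lower. Guca2b, which encodes uroguanylin, a peptide that raises chloride and fluid secretion through the receptor Gucy2c, had 22126, 22703, 8321 and 18532 and was 2.23-fold higher. Its relative Guca2a had 5649 in CF control and 5869 in CF + lubiprostone, Gucy2c differed by 1.13-fold, and Prkg2, a kinase further along that pathway, was 1.73-fold higher. Aqp1, a water channel, had 2768, 2559, 780.0 and 1545 and was 1.98-fold higher. Of the prostaglandin genes, Hpgd, which breaks prostaglandins down, had 2140.3, 1862, 549 and 1085 and Ptger4, a receptor of prostaglandin E2, 1122, 869, 1516 and 1106.

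A few single genes of xenobiotic and bile acid sensing stood out. Cyp1a1, the sentinel target of the aryl hydrocarbon receptor, had signals of 571, 38, 291 and 18.7, below the median in both treated pools, at least 2.43-fold lower in CF. Fgf15, the ileal hormone of bile acid feedback, had 369.8, 202, 278 and 54.2 and was at least 2.32-fold lower, while Slc10a2, the ileal uptake carrier of bile acids, had 807, 602, 332 and 670.2 and was 2.02-fold higher. Ces2a, a carboxylesterase, had 9431, 4459.5, 1437 and 641, lower with lubiprostone in both genotypes. Cybrd1, the ferric reductase of duodenal iron uptake, had 164, 345, 275 and 901 and was higher with lubiprostone in both. Of 20 circadian clock genes 14 were higher with a median of 0.41. The E-box CACGTG was in the promoter windows of 4 of 17 of them (23.5%) and of 1092 of 9521 kept genes (11.5%), and the median was 0.42 for those with a match and 0.45 for those without. Cry2, a repressor of the clock, had 329, 242, 125 and 286, Dbp, an output gene, 1036, 1252, 442 and 712, and Arntl, a core activator, 335, 291, 311 and 302, and the hour at which tissue was taken is not given in the sources used here. Immediate early genes were higher in 22 of 26 cases (median 0.31) and in 17 (median 0.18) with the arrays set to the same median, with Fos, the brightest, at 8025, 8719, 8674 and 8910.3.

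Lubiprostone in WT mice was set beside these values, since the 2 comparisons share no array. Over the same 11796 genes, 60 (0.509%) lay 3-fold or more above WT control in WT + lubiprostone and 62 (0.526%) below it, fewer than the 115 and 88 in CF. At 2-fold the WT counts were 151 (1.28%) and 164 (1.39%). The SD of the log2 ratios was 0.534 in CF and 0.414 in WT, and 0.413 and 0.286 over the 7112 brighter genes. Across genes, which are not independent replicates and were read on the same platform, the ratios of the 2 genotypes had a Pearson correlation of 0.179 (Spearman 0.179), and 0.317 (0.256) over brighter genes. Of the genes at least 3-fold higher in CF, 10 were so in WT as well, and of those at least 3-fold lower 23 were. Another 2 genes were 3-fold higher in CF and 3-fold lower in WT, and 6 were the reverse. The study, by its own analysis of these arrays at 3-fold, reported no gene higher in both genotypes and none lower in both. The 10 shared higher genes all lay below the 75th percentile of both CF arrays. Among them 2310057J18Rik had signals of 317, 1333, 86.1 and 293, and was above the 75th percentile in WT + lubiprostone. The 14 brighter shared lower genes were pancreatic enzymes, the trypsinogen-like 2210010C04Rik, Hspa1b, Hspa1a, Hsph1 and Gsdmc2. Genes at least 3-fold higher in CF had a median WT log2 ratio of 0.10 and those at least 3-fold lower of -0.53. Saa1, an acute phase protein, was the reverse case, with signals of 503, 5702, 7057 and 7985, far higher in treated than control WT mice and nearly equal in the 2 CF pools.

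**Figure D5:**
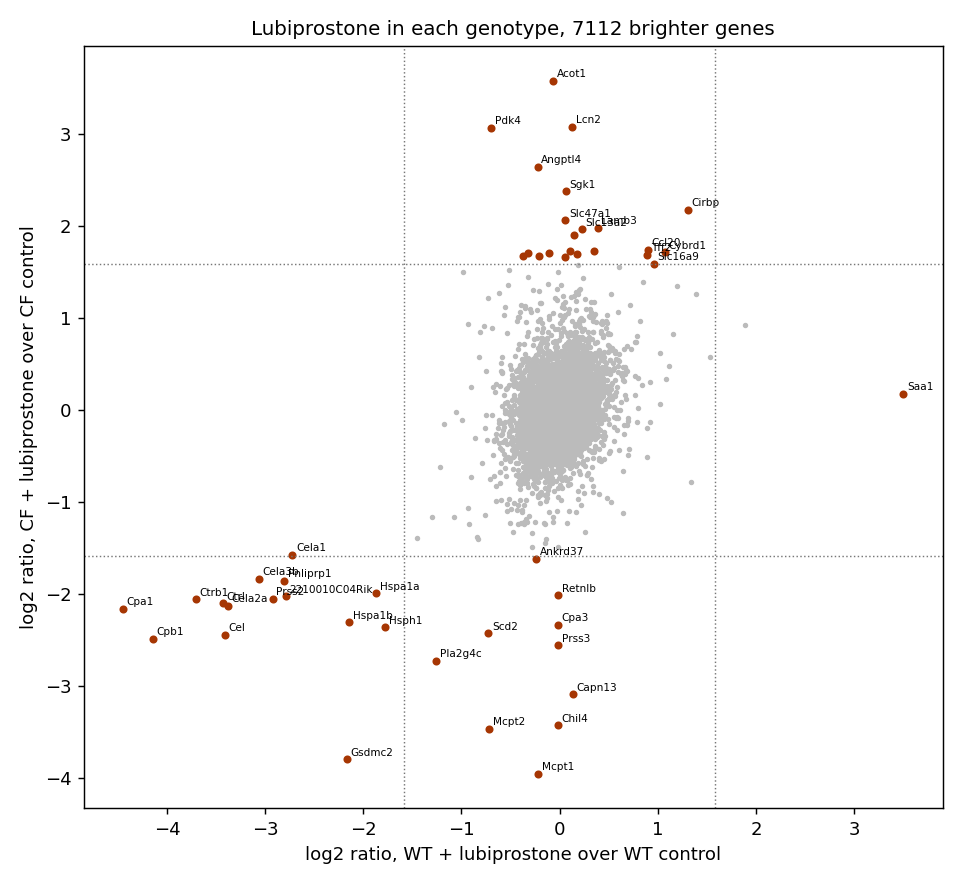
Log2 ratio of lubiprostone over control in CF (vertical axis) against that in WT (horizontal axis) for 7112 brighter genes, with signals under the array median raised to it and dotted lines at 3-fold. Acot1, Lcn2 and Pdk4 lie high in CF and near 0 or below in WT, Saa1 lies at 0.18 in CF and 3.50 in WT, and most pancreatic enzymes, Hsph1, Hspa1a and Hspa1b lie low in both.

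Other lists had medians closer to 0, and those of the retinoid, tight junction, bacterial sensing and macrophage genes turned negative with the arrays set to the same median. Brush border hydrolases had a median of 0.18, with Lct, lactase, at 24559, 20420, 3276 and 1992 and Ace, a dipeptidase of the brush border, at 4691, 4885, 1598 and 2379.5. Cytochrome P450 genes were higher in 9 and lower in 12 cases, with Cyp3a11, which oxidizes drugs and bile acids, at 27739, 33124, 2845 and 4396 and Cyp4b1 at 3472, 3942, 918 and 2736. Retinoid genes had a median of 0.12, with Rdh7, a retinol dehydrogenase, at 6131, 5346, 396 and 884, and tight junction genes of 0.04. Genes of bacterial sensing had a median of 0.03 and macrophage and dendritic cell genes of 0.08, with Cd14, a receptor for bacterial lipopolysaccharide, at 270.1, 363, 471 and 855. B cell and plasma cell genes had a median of 0.20, with Igha, the heavy chain of IgA, at 28882, 31852, 36518 and 38732.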

How the data were processed

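Total RNA of pooled mice was hybridised to 4 Affymetrix Mouse 430 2.0 arrays, 1 for each of 4 groups. The authors deposited MAS5 intensities from GCOS, linear and scaled, with a trimmed mean of 500.0 on every array. Software versions are not given in the sources used here, the deposited values hold no detection calls, and the number of arrays limits the precision. Probe sets were named through the platform annotation: 34970 had 1 symbol, 920 several and 9211 none, and 34766 symbols were updated by gene identifier. The filter, averaging and thresholds are those of the report, computed with Python 3.11.15, numpy 2.4.6 and pandas 2.3.3. Known ratios were recovered in simulated data without noise. That checks the arithmetic and not the precision of the ratios. With 1 array a group no test was made. The 20 highest and 20 lowest bright genes, and for each of 62 gene lists the 3 brightest genes and the 3 with the largest ratios, were selected by rule, as were genes named in the study. Only some of these are named above. Other members were picked, and the motifs chosen, after their values were seen. The members and lists were chosen with earlier results of these data known. Alternatives were other filters, scalings, floors and ways to combine probe sets.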

Additional observations from a re-analysis of the deposited data

Results flagged for a closer look

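Target genes of PPAR-alpha had a median log2 ratio of 0.41 in CF and -0.21 in WT mice, and MHC class II genes of 0.40 in CF and -0.36 in WT mice. The 2 genotypes lay on opposite sides of 0 in both lists, and the difference was not tested.

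Probe sets without a single gene symbol were outside the comparison. Among them, 1423858_a_at, which has no symbol in the annotation used, had signals of 2252 and 2988 in the control and treated WT pools and of 408 and 5349 in the CF pools, 13.1-fold higher in treated than control CF mice. The probe set 1424853_s_at, shared by the fatty acid hydroxylases Cyp4a31 and Cyp4a10, had 2562, 891, 112 and 791 in the same order and was 7.06-fold higher. The probe set 1455869_at, also without a symbol, had 1476, 2970, 799.55 and 4143 and was 5.18-fold higher. The rule that flagged these took only probe sets at least 5-fold higher. Others were lower by as much, among them 1419591_at (Gsdmc2 and Gsdmc, 20.6-fold) and 1425451_s_at (Chil4 and Chil3, at least 14.5-fold). With signals under an array's median raised to it, 9 brighter probe sets without a symbol were at least 3-fold higher and 6 lower. For those of several genes the counts were 2 and 8.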

How the results depend on the processing

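No paired analysis was possible because each group was 1 array, and for the same reason no array could be left out. Counts moved most with the treatment of dim genes. Without the filter on dim signals 1094 genes were at least 3-fold higher and 733 lower (2132 and 1418 at 2-fold), with a filter at the 75th percentile 25 and 27 (108 and 74), with signals below the median set to it 24 and 25 (150 and 103), and counted by probe set 209 and 174 (686 and 500). The other alternatives gave 89 to 112 higher and 85 to 108 lower genes at 3-fold, and 265 to 379 and 227 to 347 at 2-fold. Genes at least 3-fold higher in both genotypes numbered 10, and 157 without the filter, 0 at the 75th percentile and 0 with the floor. Genes at least 3-fold lower in both numbered 23, and 113 without the filter, 14 at the 75th percentile and 14 with the floor. Of 432 values of list medians under alternatives, 421 moved by less than the SD between probe sets, 0.249. Of the 62 lists, 43 kept the sign of their median under every alternative, and the others, most with medians near 0, did not. Without the filter the median of mast cell genes was -1.0, of type 2 genes -0.78, of gasdermins 0.56, of sex-linked genes 0.20 and of erythroid genes 0.00. With the filter at the 75th percentile it was -2.33 for mast cell and 0.17 for cytochrome P450 genes. With the floor it was -0.97 for mast cell and 0.44 for erythroid genes. With the brightest probe set of each gene it was -0.05 for gasdermins and 0.07 for gastric genes. Nr4a3 and Sptb changed direction without the filter, to -0.37 and -0.15, and the other 105 of 107 named genes past 2-fold kept theirs under every alternative tried. The counts shared by the genotypes were chosen after seeing the data.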
